A study of Mus musculus with 8 samples.

Results

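Nav3, Slc2a5, Siglech, Fcrls, Gpr34, Sparc and Olfml3 are 7 genes that adult microglia use at rest and that are commonly counted among the homeostatic genes of these cells. Their acetylation was followed in microglial nuclei of mice with and without Grn. The members were the regions of the deposited table whose nearest gene was 1 of the 7, which gave 139 of 129304 regions and 7 of 18707 gene symbols. Of the 139 regions, 119 held enough tags to be tested and 20 did not, and the mean of an untested region was at most 5.90 scaled tags.

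Microglia are the resident macrophages of the brain, and in the healthy brain they carry a set of surface receptors, transporters and secreted proteins by which they are told apart from other macrophages. Many of these genes are read at a lower level when microglia react to injury, age or stored material. Acetylation of histone H3 at lysine 27 (H3K27ac) marks active promoters and enhancers, so its level at the regions of a gene reports on the regulatory activity around that gene and not on its RNA. The protein products of the members differ widely. Nav3 encodes a navigator protein that binds microtubules, and Slc2a5 encodes GLUT5, a fructose transporter. Siglech encodes a sialic acid-binding lectin that signals through an adaptor, Fcrls a scavenger receptor of the Fc receptor-like family, and Gpr34 a G protein-coupled receptor for lysophosphatidylserine. Sparc encodes a secreted collagen-binding glycoprotein, and Olfml3 a secreted glycoprotein with an olfactomedin domain.

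H3K27ac was profiled by chromatin immunoprecipitation and sequencing in fixed brain nuclei sorted as positive for PU.1, a myeloid transcription factor, and negative for OLIG2 and NEUN. All mice were C57BL/6 and 2 years old, and the groups were wild type (WT) and GrnKO, which lack Grn, the gene of the lysosomal and secreted protein progranulin. The labels name no treatment, sex or source of the GrnKO line, and the Grn loss is not described as limited to microglia. Each genotype was sampled with 2 replicates, and nuclei of 2 mice were pooled in each. From every pool an H3K27ac library and, without antibody, an input library were sequenced.

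The H3K27ac libraries held 15491642.5 to 20030832 tags and the inputs 4078179 to 14415969. The share of tags in listed regions was 49.4% in WT replicate 1 and 63.3% to 65.7% in the other H3K27ac libraries. Values are scaled tags, the tags of an 800 bp region at a library total of 10000000, corrected between libraries by TMM, a scaling factor that assumes most regions do not change. At regions assigned to Grn itself the WT sums reached 2291 and 1871 scaled tags and the GrnKO sums 157 and 162, and a Grn promoter region at 357 and 300.1 in WT was listed at 0 in both GrnKO libraries. Summed over 7 microglia markers fixed for the check of the cell type, H3K27ac was 227 and 249 scaled tags per region in WT and 185 and 197 in GrnKO, with all 7 changes negative and 5 of the 7 past the threshold. The marker lists of other cells were at 7.17 to 12.9 for neurons, 3.44 to 5.34 for astrocytes, 25.5 to 28.3 for endothelial cells, 42.6 to 57.1 for oligodendrocytes, 24.9 to 31.0 for border macrophages and monocytes and 24.4 to 72.8 for T and B cells. The last 3 ranges have their highest values in GrnKO libraries, and Gad2 and Slc17a7 were at or near 0. Of 24 tested markers of other cells 4 fell in GrnKO (Syt1, Mog, Pecam1 and Ccr2) and 4 rose (Mbp, Flt1, Ms4a7 and Ms4a1), and the part of other cells in the results was not tested.

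Sequence before the start site is shown for Siglech and Sparc, whose start-site regions lost acetylation (as did that of Nav3, for which no window was used here), and for the site in Fcrls whose letters match the PU.1 motif. Sequences are from RefSeq, build GRCm38.p6, on the strand of the gene and read 5′ to 3′ towards the start site. Capitals mark a match to a motif searched for, other than the short ETS core. The Siglech stretch, chr7:55767934-55768153 on the plus strand, ends 30 bases before the start site, where another RefSeq model of the gene begins. The Sparc stretch is chr11:55420081-55420330 on the minus strand and ends at the start site. The Fcrls stretch, chr3:87263581-87263610 on the minus strand, lies before the start site used by the table but inside the span of a longer RefSeq model of the gene, and is therefore shown only as the match with its flanks.

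Siglech: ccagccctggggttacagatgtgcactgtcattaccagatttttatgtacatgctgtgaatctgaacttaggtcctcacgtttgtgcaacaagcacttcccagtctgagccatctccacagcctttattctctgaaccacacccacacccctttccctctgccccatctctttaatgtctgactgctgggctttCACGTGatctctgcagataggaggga

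Sparc: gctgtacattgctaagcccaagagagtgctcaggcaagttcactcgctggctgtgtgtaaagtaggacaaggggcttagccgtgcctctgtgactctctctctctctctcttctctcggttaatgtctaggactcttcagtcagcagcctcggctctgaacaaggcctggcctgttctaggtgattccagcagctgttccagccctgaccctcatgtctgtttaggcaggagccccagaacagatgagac

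Fcrls: acaactttgccACTTCCTttttttcctatt

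The motifs were searched on both strands in the 250 bases before the start site. The RefSeq windows used here, 32851 in all, covered 5 of the 7 members, all but Nav3 and Gpr34. In each of the 5 the RefSeq start site and the one implied by the deposited table differed by 0 bp. The E-box CACGTG, the letters that MITF and TFEB proteins can bind, occurred in Siglech, from 56 to 51 bases before the start site, and in 6.02% of all windows. The PU.1 letters AGGAAGT occurred in Fcrls, on the reverse strand from 75 to 69 bases before the start site, and in 7.69% of all windows. The core ETS letters GGAA, which are part of the PU.1 letters, occurred in 4 of the 5 members, all but Slc2a5, and in 93.4% of all windows. No member window held the AP-1 letters TGANTCA (6.75% of all windows), the E-box CATGTG (12.3%) or a match to the MEF2 motif (3.2%) or the IRF motif (2.98%). These matches describe letters in the windows and say nothing of binding.

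Summed over all regions of a gene, H3K27ac was lower in GrnKO for Nav3, Slc2a5 and Siglech. The falls were 28.3%, 33.4% and 22.8%, as converted from the log2 changes. For Sparc, Olfml3, Fcrls and Gpr34 the sums did not pass the test. These values are after TMM. Under the authors' scaling, that of the deposited values, the 3 genes kept a negative sign but did not pass. A lower sum can come from fewer nuclei with an active gene or from less acetylation per nucleus, and these cannot be told apart. Thus 3 of 7 members were lower and 0 higher by limma at an adjusted p under 0.05 over all 15380 genes tested, where 5.88% of genes were lower and 8.59% higher. Of the higher direction, 1 member, Fcrls, had an unadjusted p under 0.05, and 0 passed with edgeR or DESeq2. Groups that did not overlap were found for 5 members with GrnKO below WT, against 29.4% of all genes, and for 1 member, Fcrls, with GrnKO above, against 25.4%. The median log2 change of the 7 members was -0.31, and that of all genes tested was -0.05. All log2 changes are GrnKO minus WT on the log2(value + 1) scale, with the standard error (SE) of the limma fit.

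**Figure D1:**
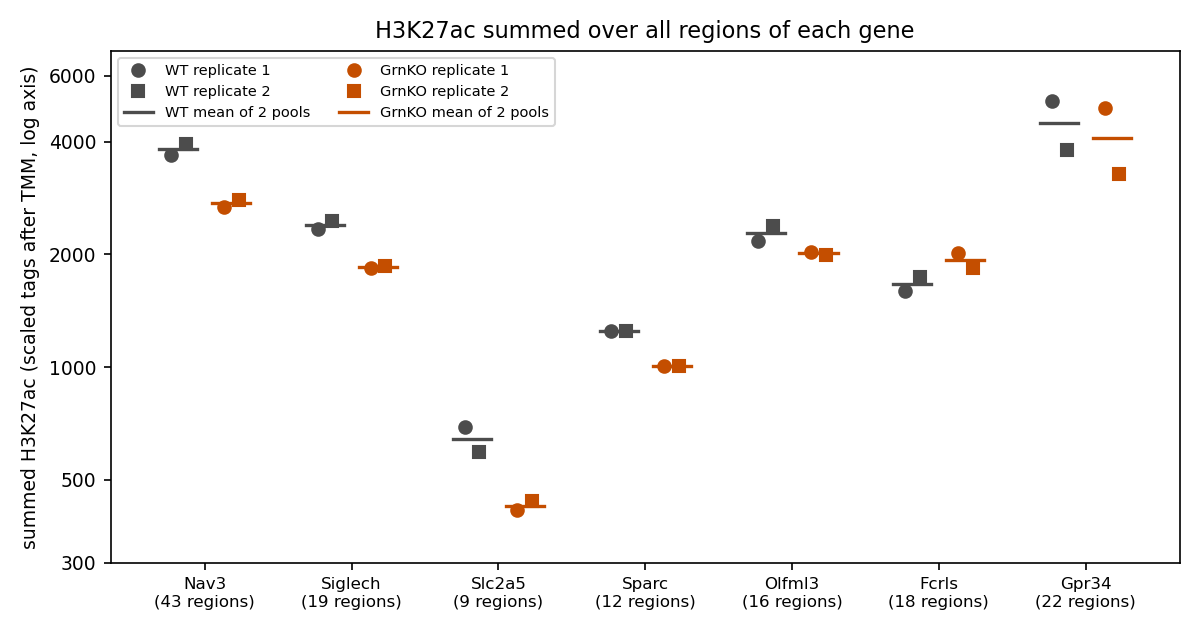
H3K27ac summed over all regions of each member, in scaled tags after TMM on a log axis, with 1 point for each library and a bar for the mean of the 2 pools of a genotype. Both GrnKO points lie below both WT points for Nav3, Siglech, Slc2a5, Sparc and Olfml3, both lie above for Fcrls, and the Gpr34 points sort by replicate number.

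Every listed region is 800 bp wide, so levels can be compared between members as scaled tags per region. In WT this level was highest for Gpr34, at 204 (234 and 173 in the replicates), followed by Olfml3 at 142 (136 and 149), Siglech at 126 (123 and 129.6) and Sparc at 104.2 (104.3 and 104.1). It was 92.6 for Fcrls (88.5 and 96.7), 88.9 for Nav3 (85.7 and 92.0) and 71.4 for Slc2a5 (76.7 and 66.1). The ranges of the 2 replicates overlapped for Fcrls and Nav3 and for no other neighbors in this order.

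Over single regions, 13 of the 119 tested member regions fell in GrnKO and 3 rose, beside 2.92% of all tested regions lower and 6.8% higher by the same limma test over 80728 regions. The 13 lower regions belonged to Nav3 (7), Siglech (3), Sparc (2) and Slc2a5 (1), and the 3 higher ones to Fcrls (2) and Olfml3 (1). Some of the regions overlap on the genome and share tags, and 9 of the 13 remain when each tag is counted once. The sign of the change was negative in 81 tested member regions and positive in 38, with a median of -0.14 against 0.00 for all tested regions. In 41 member regions both GrnKO libraries lay below both WT libraries and in 15 above, where 25.6% and 27% of all regions did so. Fewer of the 16 called regions passed when a GrnKO library was left out than when a WT library was. All 16 kept their sign whichever library was left out. In each such fit the genotype with 1 library has no spread of its own, and that of the other genotype stands in for it. The number of calls left therefore does not show on which library a call rested.

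**Figure D2:**
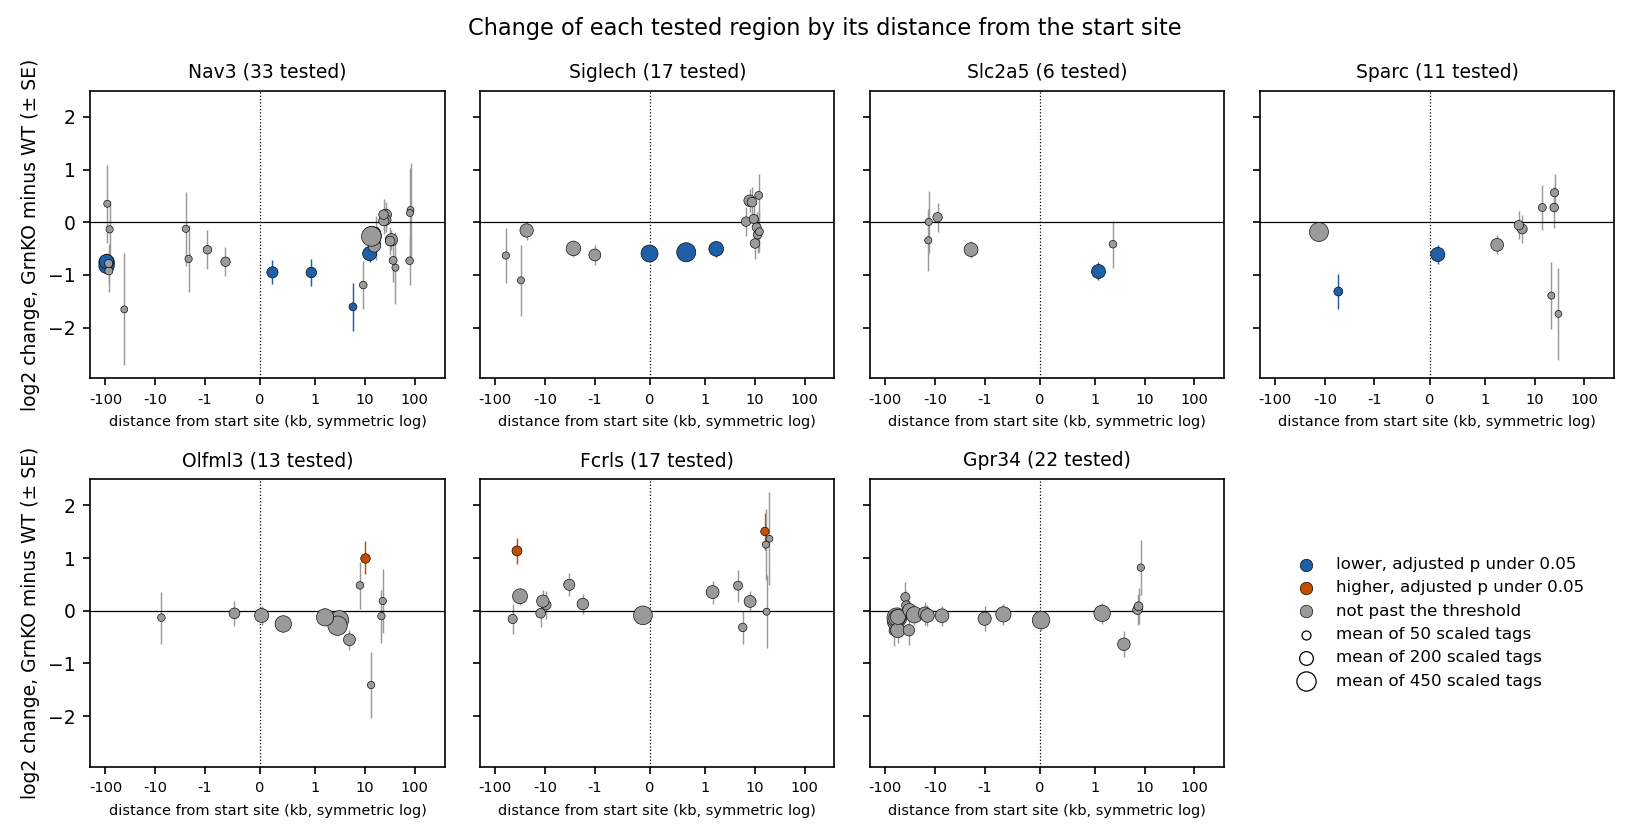
Log2 change of every tested region of each member (GrnKO minus WT, bars are ± SE) against its distance from the start site in kb on a symmetric log axis, with point area following the mean scaled tags and color the call. Lower calls (blue) lie near the start site and far upstream in Nav3, near the start site in Siglech, Slc2a5 and Sparc, and higher calls (orange) lie in Fcrls and Olfml3.

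Nav3 had the most member regions, 43, of which 33 were tested. Its sum was 3687 and 3955 scaled tags in the WT replicates and 2683 and 2789.9 in the GrnKO replicates. Both GrnKO pools lay below both WT pools, and the log2 change was -0.48 (SE 0.08, limma adjusted p = 0.0013). Input sums of Nav3 were small beside this and had the opposite order, at 180.2 and 122 scaled tags in WT and 262 and 245 in GrnKO.

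Of the Nav3 regions 7 fell. They lie at the start site, in intron 1 and far upstream. The region over exon 1, chr10:109999594-110000394, was at 151 and 147 scaled tags in WT and 62.8 and 93.7 in GrnKO, a log2 change of -0.95 (SE 0.23, limma adjusted p = 0.013). The overlapping region in intron 1, chr10:109998890-109999690, was at 103.6 and 145 in WT and 55.2 and 71.3 in GrnKO, a change of -0.96 (SE 0.25, limma adjusted p = 0.019). In both regions each GrnKO library was below each WT library. Farther into intron 1, chr10:109994078-109994878 fell from 54.0 and 26.5 to 12.7 and 10.8, by 1.61 on the log2 scale (limma adjusted p = 0.032), and chr10:109987378-109988178 fell from 265 and 248 to 155 and 185, by 0.60 (limma adjusted p = 0.030). The groups did not overlap in either.

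The other 3 lower Nav3 regions overlap each other 94410 to 95063 bp before the start site used by the table. The table calls them intergenic, while the RefSeq span of Nav3, chr10:109681260-110455722, extends past them, so they lie inside a longer model of the gene. The middle one, chr10:110094594-110095394, had the smallest p of all Nav3 regions. It was at 368 and 317 scaled tags in WT and 191 and 192 in GrnKO, a log2 change of -0.83 (SE 0.15, limma adjusted p = 0.0019). Its neighbors changed by -0.76 and -0.75 (limma adjusted p = 0.0039 and 0.0063), and in all 3 the GrnKO libraries lay between 160.1 and 222 and the WT libraries between 275 and 368.

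Not all of Nav3 moved alike. The region with the highest mean of the gene, chr10:109986343-109987143 in intron 1, was at 446 and 596 in WT and 431 and 424 in GrnKO, and its change of -0.27 (SE 0.14) did not pass (limma adjusted p = 0.25). This value rests on the WT replicates, at -0.48 (limma adjusted p = 0.0034) without WT replicate 1 and -0.059 without WT replicate 2. The called region at chr10:109987378-109988178 lies beside it. The regions 23671 to 26657 bp into the gene had changes of 0.03 to 0.14, all with overlapping groups.

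Slc2a5 had 9 regions, of which 6 were tested, and none within 1000 bp of its start site. The sum was 691 and 595 scaled tags in WT and 414 and 439 in GrnKO. Both GrnKO values lay below both WT values, and the log2 change of -0.59 (SE 0.14, limma adjusted p = 0.010) was the lowest of the 7 members. Leaving out GrnKO replicate 1 gave -0.54 with a limma adjusted p of 0.13, and leaving out GrnKO replicate 2 gave -0.63 and 0.059. Counted input tags were few, 0 in WT input 1 and 50 in GrnKO input 1.

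Of the Slc2a5 regions 1 passed the test, chr4:150120112-150120912 in intron 2, centered 1168 bp after the start site. It held 300.3 and 258 scaled tags in WT and 134 and 159 in GrnKO, a log2 change of -0.92 (SE 0.17, limma adjusted p = 0.0020). The other strong region, chr4:150117071-150117871, lies 1873 bp before the start site in an LTR element of the MTD class. There WT held 243 and 239 scaled tags and GrnKO 159 and 177, so that the groups did not overlap, with a change of -0.52 (SE 0.17, limma adjusted p = 0.054). The third, 8827 bp before the start site in an RLTR14 element, was at 72.3 and 48.7 in WT and 62.5 and 64.4 in GrnKO, and its change was 0.09. The remaining tested regions were at most 28.9 scaled tags in any library.

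Among the surface receptors, Siglech fell. Its 19 regions, 17 of them tested, summed to 2336 and 2462 scaled tags in WT and 1842 and 1859.9 in GrnKO. The spread between pools of 1 genotype was small beside the gap between the genotypes, and the log2 change was -0.37 (SE 0.09, limma adjusted p = 0.011). With GrnKO replicate 1 left out the change was the same, -0.37, with a limma adjusted p of 0.14, and without GrnKO replicate 2 it was -0.38 with 0.10.

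The 3 Siglech regions past the threshold lie in a row at the start of the gene. The promoter region, chr7:55767777-55768577, which covers the Siglech sequence printed above, was at 364 and 454 in WT and 269.6 and 268 in GrnKO. Its log2 change was -0.59 (SE 0.15, limma adjusted p = 0.014). The region in intron 1, chr7:55768442-55769242, had the highest mean of the gene, with 427 and 638 in WT and 309 and 399 in GrnKO, and fell by 0.57 (limma adjusted p = 0.038). In intron 3, chr7:55769457-55770257 fell from 288 and 274 to 206 and 189, by 0.51 (limma adjusted p = 0.047). In each of them both GrnKO pools were below both WT pools, though the WT pools themselves were far apart in intron 1, where the change was -0.86 without WT replicate 1 and -0.28 without WT replicate 2 (limma adjusted p = 1.6e-06 and 0.18). A pair of regions farther upstream, 997 and 2679 bp before the start site, had changes of -0.62 and -0.50 with limma adjusted p of 0.052 and 0.057.

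In intron 5 of Siglech lie 3 regions inside an RLTR14-int element, a retroviral repeat, at changes of 0.01, 0.41 and 0.38. The middle one, chr7:55775639-55776439, was at 122 and 86.7 in WT and 149 and 126 in GrnKO, so GrnKO lay above WT, with a limma adjusted p of 0.27. The 6 tested regions from the 3′ UTR on had changes from -0.40 to 0.51, and none passed (limma adjusted p of 0.46 to 0.94). Reads in repeats can be shared between copies, and how such reads were counted is not given in the sources used here.

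**Figure D3:**
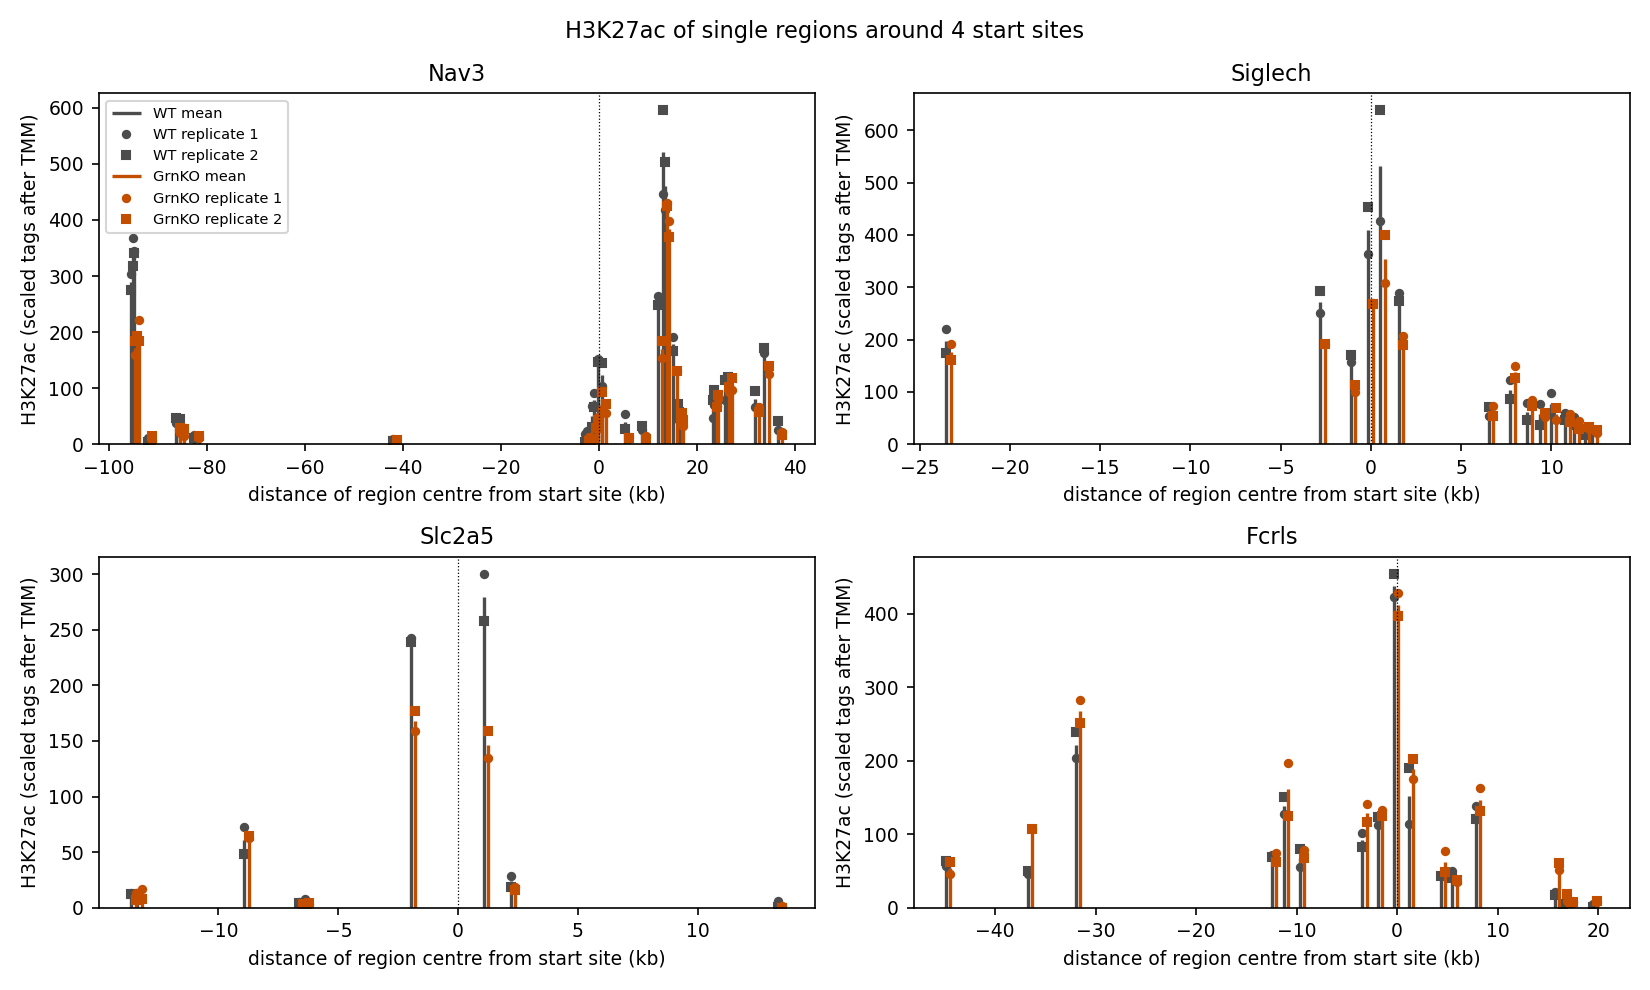
Scaled tags after TMM of single regions of Nav3, Siglech, Slc2a5 and Fcrls against the distance of the region centre from the start site in kb, with lines for the mean of a genotype and points for its 2 replicates, GrnKO drawn to the right of WT. GrnKO points lie below WT points far upstream of Nav3 and at the start of Siglech, and above them 36553 bp upstream of Fcrls.

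Fcrls had a change of the other sign. Its 18 regions, 17 of them tested, summed to 1594 and 1741 scaled tags in WT and 2019 and 1835 in GrnKO. Both GrnKO values lay above both WT values, yet the log2 change of 0.21 (SE 0.10) did not pass (limma adjusted p = 0.18). It passed when WT replicate 2 was left out, at 0.27 with a limma adjusted p of 0.026, and was smaller without WT replicate 1 (0.14, limma adjusted p = 0.33) and without GrnKO replicate 1 (0.14, limma adjusted p = 0.76).

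The promoter region of Fcrls, chr3:87263250-87264050, was its strongest and was much the same in both genotypes. It was at 422 and 455 in WT and 428 and 397 in GrnKO, with overlapping groups and a change of -0.09 (SE 0.13, limma adjusted p = 0.74). The 2 Fcrls regions that rose are weak and distant. At 36553 bp before the start site, chr3:87299677-87300477 was at 46.1 and 50.5 in WT and 107.5 and 107.0 in GrnKO, a log2 change of 1.13 (SE 0.25, limma adjusted p = 0.0064). At 15942 bp after the start site and beyond the end of the gene, chr3:87247182-87247982 was at 21.5 and 17.0 in WT and 51.2 and 61.6 in GrnKO, a change of 1.50 (SE 0.35, limma adjusted p = 0.010). In both regions GrnKO was more than double WT and the groups were far apart. Of the 17 tested Fcrls regions 12 had a positive change, with a median of 0.18, the only member with a median above 0.

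Gpr34, on the X chromosome, had 22 regions, all tested. Of these, 14 are annotated to introns of Cask and are assigned to Gpr34 by the nearest start site. The introns of Cask reach into the RefSeq span of Gpr34, so the other regions may lie within Cask as well. The sum and the level per region of Gpr34 thus rest mostly on regions annotated to another gene. None of the 22 regions passed in limma or edgeR, and 1 had an unadjusted p under 0.05 in limma. Its sum was 5152 and 3811 scaled tags in WT and 4908 and 3275 in GrnKO. The groups overlapped, and replicate 1 was above replicate 2 in both genotypes. The log2 change was -0.14 (SE 0.16, limma adjusted p = 0.62), it was 0.07 without WT replicate 1 and 0.15 without GrnKO replicate 2, and without WT replicate 2 it was -0.36 with a limma adjusted p of 2.6e-05. No direction is therefore given for this gene.

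The order of the replicates ran through nearly all of the locus. The log2 difference of replicate 1 minus replicate 2 had a median of 0.51 over the 22 Gpr34 regions in WT, with 18 regions above 0, and of 0.59 in GrnKO, with 21 above 0. Over 1743 tested X-linked regions the medians were 0.09 and 0.11, and over autosomal regions -0.01 and 0.00. At regions assigned to Xist, the RNA of the inactive X chromosome, the 4 H3K27ac libraries also sorted by replicate number, with 98.9 (WT) and 119 (GrnKO) scaled tags in both replicates numbered 1 and 0 (WT) and 5.08 (GrnKO) in those numbered 2. The sex of the pooled mice is not in the labels, and its part in the Gpr34 values was not tested.

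The promoter region of Gpr34, chrX:13632392-13633192, was at 463 and 318 in WT and 399.7 and 286 in GrnKO, a change of -0.18 (SE 0.18, limma adjusted p = 0.60). The strongest region assigned to Gpr34 lies 58309 bp upstream in intron 12 of Cask, chrX:13574060-13574860. It was at 569 and 435 in WT and 518 and 396 in GrnKO, a change of -0.13 (limma adjusted p = 0.65). The smallest p of the gene, in intron 2 at chrX:13636180-13636980, belonged to a change of -0.64 (SE 0.25, limma adjusted p = 0.12), with 242 and 143 in WT and 149 and 95.3 in GrnKO. Groups overlapped in all 3. Without WT replicate 2 the promoter region and the one in intron 2 passed (-0.45 and -1.01, limma adjusted p = 0.030 and 0.00051), while the promoter region was at 0.091 without WT replicate 1 and 0.060 without GrnKO replicate 2. The region in Cask intron 12 was at 0.058 and 0.059 without those libraries.

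Of the secreted proteins, Sparc had 12 regions, 11 of them tested. Its sum was nearly identical within each genotype, at 1251 and 1249.8 scaled tags in WT and 1007.5 and 1009.5 in GrnKO. Both GrnKO values were below both WT values, by 19.3% on the means. The log2 change of -0.31 (SE 0.10) missed the threshold (limma adjusted p = 0.058). It passed without WT replicate 1 (-0.31, limma adjusted p = 0.040) and without WT replicate 2 (-0.31, limma adjusted p = 0.037), but not without GrnKO replicate 1 or 2 (-0.31 in both, limma adjusted p = 0.36 and 0.31), all fits whose lone library is assumed to vary like the other group.

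The Sparc regions that passed were the one at the start site and one upstream. The start-site region, chr11:55419533-55420333, lies over exon 1 in the 5′ UTR and covers the Sparc sequence above. It was at 237 and 286 in WT and 148 and 195 in GrnKO, a log2 change of -0.61 (SE 0.18, limma adjusted p = 0.037). At 5328 bp before the start site, chr11:55425008-55425808 fell from 77.4 and 63.9 to 20.6 and 36.9, by 1.32 on the log2 scale (SE 0.33, limma adjusted p = 0.017). The strongest Sparc region, 13086 bp before the start site at chr11:55432766-55433566, was at 467 and 459.6 in WT and 413 and 401 in GrnKO. Groups did not overlap there either, but its change of -0.19 (SE 0.12) did not pass (limma adjusted p = 0.39).

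Olfml3 had 16 regions, 13 of them tested. The sum was 2173 and 2377 scaled tags in WT and 2027 and 1999 in GrnKO, so that the groups did not overlap. The log2 change of -0.18 (SE 0.09) did not pass (limma adjusted p = 0.23), and it ranged from -0.24 (limma adjusted p = 0.0496) without WT replicate 1 to -0.11 (limma adjusted p = 0.44) without WT replicate 2. Its strongest region, chr3:103734788-103735588 at the end of this short gene, was at 484 and 519.6 in WT and 379 and 447 in GrnKO, a change of -0.28 (SE 0.13, limma adjusted p = 0.18). The strongest region within 1000 bp of its start site, chr3:103737180-103737980, was at 297 and 386 in WT and 301.5 and 268 in GrnKO, a change of -0.25 with overlapping groups (limma adjusted p = 0.35) that was -0.44 without WT replicate 1 (limma adjusted p = 0.029) and -0.061 without WT replicate 2 (limma adjusted p = 0.82).

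The 1 Olfml3 region past the threshold rose. It lies 9875 bp after the start site, beyond the end of the gene, at chr3:103727726-103728526. It was at 59.4 and 30.1 in WT and 97.6 and 76.1 in GrnKO, a change of 1.01 (SE 0.31, limma adjusted p = 0.0498). The groups did not overlap, the p lies just under the threshold, and without WT replicate 2 the change was 0.53 (limma adjusted p = 0.16).

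Promoter sums, taken over regions within 1000 bp of the start site, fell for 2 of the 6 members that have such regions, Nav3 and Siglech, beside 1.66% of all genes lower and 3.57% higher. Nav3 promoter regions were at 414 and 390.2 in WT and 202 and 237 in GrnKO, a log2 change of -0.87 (SE 0.16, limma adjusted p = 0.0035). Those of Siglech were at 948 and 1262 in WT and 678 and 780.0 in GrnKO, a change of -0.59 (SE 0.13, limma adjusted p = 0.014). In both genes the groups did not overlap, and neither passed without GrnKO replicate 1 (-0.76 and -0.49, limma adjusted p = 0.086 and 0.17). Siglech passed at -0.38 without WT replicate 2 (limma adjusted p = 0.017) and was -0.79 without WT replicate 1. The Sparc promoter sum is its single start-site region and did not pass (-0.61, limma adjusted p = 0.084). It passed without WT replicate 1 (-0.75, limma adjusted p = 0.0045) and with regions up to 2000 bp from the start site (-0.54, limma adjusted p = 0.043), and was -0.48 without WT replicate 2 and -0.41 without GrnKO replicate 1 (limma adjusted p = 0.10 and 0.70). Promoter changes were -0.17 for Olfml3, -0.09 for Fcrls and -0.14 for Gpr34, with limma adjusted p of 0.59, 0.81 and 0.76, and that of Gpr34 was -0.40 without WT replicate 2 (limma adjusted p = 0.0098) but 0.13 without WT replicate 1 and 0.16 without GrnKO replicate 2. With 1 library left out the Olfml3 value ranged from -0.32 to -0.014 and that of Fcrls from -0.14 to -0.032.

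Distal sums, over all other regions, fell for 2 of 7 members, Nav3 and Slc2a5, beside 7.13% of all genes lower and 10.9% higher. The changes were -0.44 for Nav3 (SE 0.08, limma adjusted p = 0.0034) and -0.59 for Slc2a5 (SE 0.14, limma adjusted p = 0.012). Without GrnKO replicate 1 neither passed (-0.42 and -0.54, limma adjusted p = 0.078 and 0.16), and without GrnKO replicate 2 Slc2a5 did not (-0.63, limma adjusted p = 0.087). The Slc2a5 fall lies in its regions 1168 and 1873 bp from the start site: with those counted as promoter, at a window of 2000 bp, its distal change was -0.10 (limma adjusted p = 0.83). Distal Fcrls was at 1171 and 1286 in WT and 1591 and 1438 in GrnKO, above WT in both pools, with a change of 0.30 (SE 0.10, limma adjusted p = 0.068) that passed without WT replicate 2 (0.37, limma adjusted p = 0.018) and was 0.23 without WT replicate 1 or GrnKO replicate 1 (limma adjusted p = 0.12 and 0.52). For Siglech, Sparc, Olfml3 and Gpr34 the distal changes were -0.20, -0.24, -0.18 and -0.15, with limma adjusted p of 0.25, 0.16, 0.23 and 0.60. Distal Siglech passed with a window of 500 bp (-0.33, limma adjusted p = 0.025), and at 1000 bp it was -0.098 without WT replicate 1 and -0.30 without WT replicate 2.

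Whether promoters and distal regions of a gene changed by different amounts was tested on the log2 ratio of both sums. Of 7324 genes, 0 passed in limma (0.0%), and 12.7% had an unadjusted p under 0.05. The promoter change was below the distal change by 0.43 in Nav3, 0.39 in Siglech, 0.37 in Sparc and 0.39 in Fcrls, with SE of 0.24, 0.33, 0.30 and 0.21. The limma adjusted p of these differences were 0.53 to 0.69. In Siglech the promoter and distal changes were -0.79 and -0.098 without WT replicate 1. Without WT replicate 2 they were nearly alike, at -0.38 and -0.30. The difference was 0.02 in Olfml3 and 0.01 in Gpr34. A difference between promoter and distal change was thus not shown for any member at this number of libraries.

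**Figure D4:**
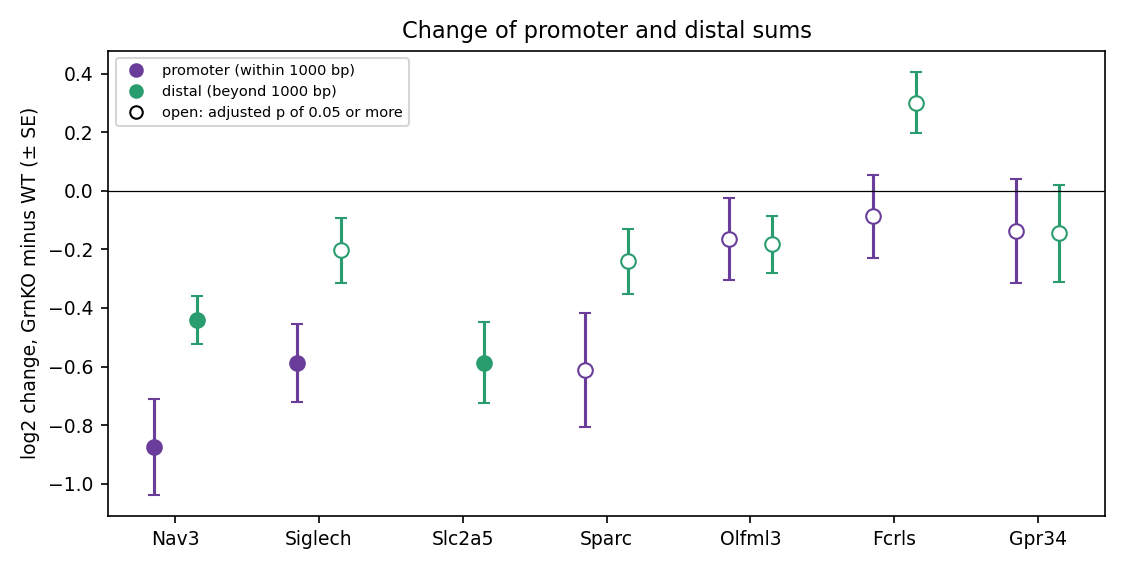
Log2 change (GrnKO minus WT, bars are ± SE) of promoter sums (purple) and distal sums (green) for each member, filled where the limma adjusted p was under 0.05. Slc2a5 has no promoter point, and Nav3, Siglech and Sparc have promoter points below their distal points while Fcrls has its distal point at 0.30.

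The calls of lower acetylation depend on the scaling between libraries. The authors' scaling here means that of the deposited values, to library totals only. The submitters' notes also name DESeq2, so their own comparison of genotypes may have used other factors. When libraries were scaled only to their totals, the median log2 change of all genes was 0.18 where TMM gave -0.05, a shift of 0.22. The changes of the members were then -0.25 for Nav3, -0.36 for Slc2a5, -0.15 for Siglech, -0.08 for Sparc, 0.05 for Olfml3, 0.43 for Fcrls and 0.08 for Gpr34. The limma adjusted p of Nav3 and Slc2a5 became 0.65 and 0.39. No gene sum passed, the 3 called genes kept their sign, and the small changes of Olfml3 and Gpr34 took the sign of the shift. The promoter sums of Nav3 and Siglech (-0.65 and -0.36) and the distal sums of Nav3 and Slc2a5 (-0.21 and -0.36) did not pass either. Of the 13 lower regions 0 passed and of the 3 higher ones 3. Relative to the median of all genes under that scaling, the changes were -0.43, -0.54, -0.32, -0.26, -0.12, 0.26 and -0.09 in the same order. Over all regions, 95.2% of those called were higher under the authors' scaling and 70.0% under TMM. For gene sums the shares were 90.8% and 59.4%. The TMM factor was 0.825 for WT replicate 1, the library with the lowest share of tags in regions, and 1.04 to 1.08 for the others, and which scaling is nearer the truth was not tested.

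**Figure D5:**
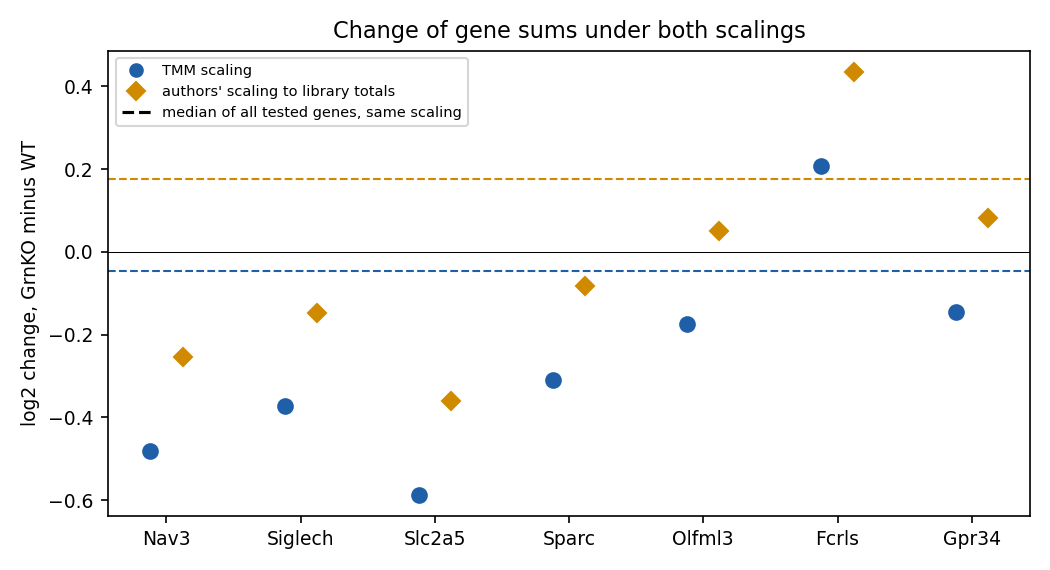
Log2 change of the gene sum of each member (GrnKO minus WT) under TMM (blue circles) and under the authors' scaling to library totals (yellow diamonds), with dashed lines for the median of all tested genes under the same scaling. Both points of a gene move with the line of their scaling, and Nav3, Slc2a5 and Siglech stay below and Fcrls above their line.

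A list of 32 other genes known from homeostatic microglia was read in the same fit. H3K27ac summed per gene was lower in 13 of them, beside 5.88% of all genes tested, and higher in 0, beside 8.59% (also 0 at an unadjusted p under 0.05 and with edgeR or DESeq2), with 28 negative changes and a median of -0.21. The 3 with the smallest p were Cx3cr1, the fractalkine receptor, with a log2 change of -0.41 (limma adjusted p = 0.00064), Selplg, a selectin ligand, with -0.57 (limma adjusted p = 0.00082), and Adgrg1, an adhesion receptor, with -0.61 (limma adjusted p = 0.0016). The count was 21 without WT replicate 1, 5 without GrnKO replicate 1, 8 without GrnKO replicate 2 and 0 under the authors' scaling. This list was chosen with results of these libraries known, so its count is a description of them.

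The 7 members did not share one profile over the 4 libraries. Sparc lay nearest to the median profile of the members, with a root mean square difference of 0.0131 on the log2 scale, followed by Siglech at 0.0400. The median was taken over the same 7 genes. It was the value of Sparc itself except in GrnKO replicate 2, where it was that of Siglech. Their nearness therefore follows from how the profile was made and is not a result. Gpr34 and Fcrls lay farthest, at 0.266 and 0.273. Of the genes outside the list, those nearest to the median profile were Slc22a16 (0.0148), Adcy8 (0.0148), Fignl1 (0.0150), 4632428C04Rik (0.0160) and 4933433H22Rik (0.0162). This likeness rests on 4 libraries.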

How the data were processed

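H3K27ac and input libraries of sorted nuclei were read from 1 deposited table of 129304 regions of 800 bp. The values are a signal: per the file headers, the authors brought each library to a total of 10000000 tags. The submitters' processing notes name Bowtie2, HOMER, DESeq2 and the build mm10. The handling of duplicate reads is not given in the sources used here. The members and the gene lists were chosen with earlier results of these data known.

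Multiplying by the library totals gave whole aligned ends, at 2 per tag, for 100% of values, within 0.00408 to 0.0200 ends by library. The test was limma 3.58.1 in R 4.3.3 on log2(scaled tags after TMM + 1), with genotype as its only term, over the 4 H3K27ac libraries, for regions kept by filterByExpr of edgeR 4.0.16 (minimum 10 tags). The TMM factors of the WT libraries were 0.825 and 1.04, and those of the GrnKO libraries 1.08 and 1.08. Tags were also summed per gene, over regions within 1000 bp of the start site and over the others, with the same factors. Benjamini-Hochberg adjustment ran over each whole table. Each mean rests on 2 pools per genotype. Groups were read from the labels.

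The text names for each member its strongest promoter region, its strongest region, the region with the smallest p and every region past the threshold. Further member regions were picked with their values in view. The alternatives were other scalings, edgeR and DESeq2 1.42.0 on the recovered counts, pseudocounts of 0.5 and 5, no filter, a replicate block, single libraries left out, the input effect subtracted, other promoter windows, regions without overlap and regions within 50000 bp. The test of promoter against distal change was added after the data were seen. The limma, edgeR and DESeq2 steps were tested on simulated data.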

Additional observations from a re-analysis of the deposited data

Results flagged for a closer look

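In 17 pairs of a tested member region and an input library (untested regions were not searched), the input value was above both the floor of 3 tags and the H3K27ac value of the same pool, both at the authors' scaling. None of these regions passed the test between genotypes. The highest was the Sparc region at chr11:55394892-55395692, in its 3′ UTR, with 112.8 scaled tags from 46 tags in WT input 1 beside 45.83 in the H3K27ac library. For Nav3 the region 9258 bp into the gene was at 61.3 in WT input 1, and the one 2408 bp before its start site at 53.95 in WT input 1 and 5.35 in WT input 2. The Nav3 regions 82649, 80498, 79239 and 41091 bp into the gene were at 21.85, 5.9, 13.53 and 6.94 in GrnKO input 1. Those 41671 and 91669 bp before its start site were at 12.83 and 10.41 in GrnKO input 1, and the latter was at 7.49 in WT input 2. The other flagged values were 23.58 for Slc2a5 2295 bp into the gene and 13.18 for Olfml3 7462 bp before its start site, both in GrnKO input 1. In WT input 2 they were 16.57 for Sparc 30115 bp after its start site and 13.9 and 12.83 for Fcrls 19700 and 16709 bp after its own. In GrnKO input 2 the value was 42.86 for Fcrls 5716 bp into the gene. The inputs held fewer tags than the H3K27ac libraries, so that 1 tag weighs more in them.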

How the results depend on the processing

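Of 688 values recomputed under an alternative, 504 kept both sign and call. The authors' scaling made the gene changes of Nav3, Siglech and Slc2a5 -0.25, -0.15 and -0.36, none past the threshold, and those of Olfml3 and Gpr34 0.051 and 0.082. It also turned the promoter changes of Olfml3, Fcrls and Gpr34 (0.061, 0.14, 0.089), the distal changes of Siglech, Olfml3 and Gpr34 (0.024, 0.044, 0.080) and the strongest Sparc region (0.040), the Fcrls promoter region (0.14) and the Gpr34 regions at 13574060 and 13632392 (0.091, 0.046). It left 0 lower member regions and 0 lower homeostatic genes.

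Subtracting the input effect gave -1.25 for Nav3, -1.82 for Siglech, -3.75 for Slc2a5, 1.30 for Sparc, -0.063 for Fcrls and 0.27 for Gpr34, with 0 member regions or homeostatic genes past the threshold in either direction. Regions turned were Nav3 109999594 (0.54), Siglech 55769457 (1.12), Fcrls 87263250 (0.10) and 87299677 (-0.42) and Gpr34 13574060, 13632392 and 13636180 (0.90, 0.85, 0.84). Input tags are few, and the cause was not tested.

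Leaving out 1 library gave gene changes from -0.41 to -0.33 for Siglech, -0.69 to -0.48 for Slc2a5, -0.31 to -0.31 for Sparc, -0.24 to -0.11 for Olfml3, 0.14 to 0.28 for Fcrls and -0.44 to 0.15 for Gpr34. For Gpr34 the promoter change ran from -0.44 to 0.16, the distal change from -0.44 to 0.14, the region at 13574060 from -0.33 to 0.059 and that at 13632392 from -0.45 to 0.091. The promoter minus distal difference ran from -0.18 to 0.22 in Olfml3 and from -0.050 to 0.067 in Gpr34.

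Counts ran from 1 to 19 for lower and 0 to 5 for higher member regions, and from 5 to 21 for lower and 0 to 1 for higher homeostatic genes; such fits have fewer samples. Without a filter 8 lower regions passed, and regions without overlap gave -0.33 for Sparc, past the threshold (limma adjusted p = 0.029). A promoter window of 2000 bp made the Fcrls promoter change 0.049, ended the Slc2a5 distal call (-0.10) and made the Sparc promoter sum pass (-0.54), and one of 500 bp made the Siglech distal sum pass (-0.33). Same-numbered libraries of the 2 genotypes come from different mice, and their deviations correlated at 0.034 (0.24 on X and Y). The labels do not say whether they share a batch or the sex of the mice, and this was not tested. With the replicate block, Sparc passed (-0.31, limma adjusted p = 0.030), 18 lower and 3 higher member regions passed, and so did the Sparc promoter sum, the Fcrls distal sum and the Gpr34 region at 13636180; no other value changed its call. For Gpr34 the block lowered the SE from 0.16 to 0.066 (limma adjusted p = 0.15). The p-values rest on 2 pools per genotype. On the recovered reads edgeR called 2020 lower and 4905 higher regions in all, 11 and 2 of them members, where limma called 2354 and 5488. The authors' scaling gave 333 lower and 6581 higher.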

Other observations

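Regions of neighboring genes, chosen after their values were seen, did not always move with the member beside them. Next to Fcrls, 3 of 8 tested regions assigned to Cd5l, a scavenger receptor ligand secreted by macrophages, were higher in GrnKO after TMM. The one at chr3:87331771-87332571 was at 10.8 ± 7.91 scaled tags in WT and 96.3 ± 24.6 in GrnKO (SD, n = 2), with a log2 change of 3.20 in limma over all regions (adjusted p = 0.00015). Upstream of Slc2a5, 5 of 7 regions assigned to Mir34a and 3 of 10 assigned to Gpr157 were higher. Some of these regions overlap and share tags, and of all tested regions 6.8% were higher. No tested neighboring region assigned to Hipk1, Atox1, G3bp1, Kirrel, Nyx or Gpr82 passed in either direction. The Mir34a region at chr4:150074929-150075729 was at 21.9 ± 0.576 in WT and 75.2 ± 3.25 in GrnKO (SD, n = 2), with a log2 change of 1.74 (limma adjusted p = 0.0016).

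Inside the RefSeq span of Slc2a5, 3 tested regions are assigned to Slc2a7, which encodes another sugar transporter, and so are not in the Slc2a5 sum. The one at chr4:150135826-150136626 fell from 83.9 ± 10.8 in WT to 37.7 ± 6.09 in GrnKO (SD, n = 2), by 1.14 on the log2 scale (limma adjusted p = 0.015). Next to Siglech, 1 of 6 Tubgcp5 regions fell, by 0.39 (limma adjusted p = 0.034), beside 2.92% of all tested regions lower.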
